A study of Mus musculus with 2669 samples.

Results

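Neurons and dividing cells of the E12.5 medial ganglionic eminence (MGE) of CD1 mouse embryos were compared, as 2 classes of single cells gated on 7 genes. The members were chosen by those measured levels: a dividing cell had at least 2 of Top2a, Mki67, Ccnb1, Bub1 and Plk1 at 10 CPM or more (CPM, a gene's count scaled to a total of 1000000 counts in the cell). A neuron had Tubb3 and Dcx each at 50 CPM or more, with Top2a and Mki67 each below 10 CPM. The 2 classes held 610 dividing cells and 56 neurons, together 666 of the 934 MGE cells of this age and of the 2669 cells in the series. The cells came from the dorsal (dMGE) and the ventral (vMGE) part of the eminence, on 6 and 7 chips. The caudal ganglionic eminence (CGE) of the same age, with 267 dividing cells and 67 neurons on 6 chips, served as the other region. All groups were CD1 embryos, and the labels name no genotype, treatment, embryo or litter. Cells were caught on Fluidigm C1 chips for small cells, and the chip was taken as the replicate. The p-values therefore measure how chips vary, whether for technical reasons or not.

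The ganglionic eminences are ventral forebrain swellings whose ventricular zone holds dividing radial glia and whose subventricular zone holds further dividing progenitors. Cells that leave the cycle there become GABAergic neurons, and the MGE is known as a source of cortical interneurons, under the transcription factors Nkx2-1 and Lhx6. Dividing cells pass through S phase, in which DNA is copied, and G2 and M phase, in which chromosomes are condensed and parted. Young neurons are known for tubulins and their partners, which build the axon and leading process.

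Neurons were rare on most chips. Of the 926 MGE cells with at least 1000 genes and 50000 counts, 255 met neither rule and 5 met both, which left them out of both classes. Dividing cells made up 10.2% to 100% of the passing cells of a chip, and neurons 0% to 22.5%. The dMGE chips 173, 176 and 184 held 16, 9 and 6 neurons, and the vMGE chip 185 held 11. No other MGE chip held over 4, and chips 170, 171 and 183 held none.

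**Figure D1:**
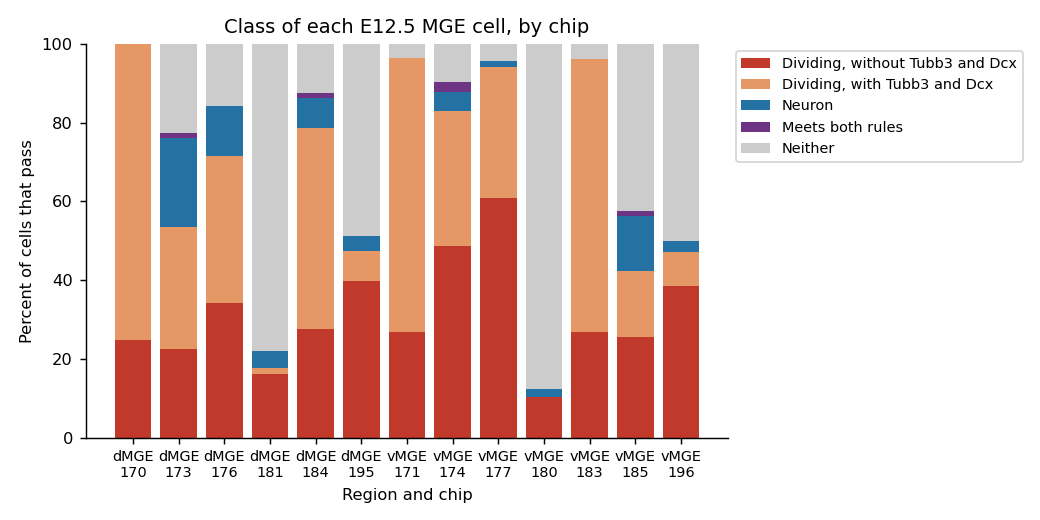
Stacked bars give the percent of passing cells (y axis) in each class on each of the 13 MGE chips (x axis), with dividing cells shown apart by whether they also held Tubb3 and Dcx at 50 CPM. Chips 170, 171 and 183 are 96.2% to 100% dividing cells, and chips 180 and 181 hold 10.2% and 17.6% dividing cells.

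Among gated cells of a chip, the share of neurons was 13.5% ± 10.5 (SD, n = 6 chips) in dMGE and 7.78% ± 9.53 (SD, n = 7 chips) in vMGE. The ranges overlapped, and the difference of -5.73 percentage points did not exceed the spread between chips (two-sided exact permutation test, p = 0.319). Over all passing cells the difference was -4.91 points (exact permutation p = 0.209).

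The gate genes only describe the choice. Top2a had a median of 509 CPM in dividing cells and 1.21 CPM in neurons, and Dcx a median of 136 CPM in dividing cells and 1017 CPM in neurons. Tubb3 differed less, with medians of 545 and 894 CPM. On the 4 chips with at least 5 cells of each class, its mean was lower in neurons on 2. Both classes kept some of the other class's genes. Ccnb1 reached 10 CPM in 14 of 56 neurons and Plk1 in 4, while Tubb3 reached 10 CPM in 507 of 610 dividing cells and Dcx in 406. At the dividing threshold, the second highest of the 5 cycle genes was 10.0 CPM in the member just inside and 9.98 CPM in the cell just outside. At the neuron threshold, the lower of Tubb3 and Dcx was 56.8 CPM just inside and 39.9 CPM just outside.

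Counts were summed per chip and class and fitted with chip as a block, leaving out the gate genes. With at least 10 cells of each class per chip, 2 chips remained (173 and 185, with 27 neurons and 71 dividing cells). Of 10809 genes tested on them, 0 (0%) passed an adjusted p under 0.05 in edgeR's quasi-likelihood test. At an unadjusted p under 0.05 there were 199 genes, 97 higher and 102 lower in neurons. DESeq2 called 444 genes on the same sums, 76 higher and 368 lower, and limma on log2(mean CPM + 1) called 0.

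With at least 5 cells of each class per chip, 4 chips remained (173, 176, 184 and 185, with 42 neurons and 184 dividing cells). Of 10427 genes tested there, 0 (0%) passed the adjusted threshold in edgeR, 0 in limma and 1854 in DESeq2. With at least 3 cells, 7 chips gave 0 edgeR calls and 336 limma calls, 335 of them lower in neurons, but 0 limma calls without chip 174 or without chip 195. The gene levels below are mean CPM per cell on these 4 chips, in that chip order. Fitted differences are log2 values, neurons minus dividing cells, from edgeR with their standard error (SE). The median difference over all genes was -0.65 on 2 chips and -0.97 on 4, and 7351 of the 10427 genes had a negative difference on 4 chips, the background for the counts of signs below. Neurons were below dividing cells on 4 of 4 chips for 1930 genes (18.5%) and above on 4 of 4 for 369 (3.54%). At an unadjusted p under 0.05 on these chips, 767 genes (7.36%) were lower and 162 (1.55%) higher in neurons. Genes measured in the gated cells are not independent of the gate, so the counts below describe what the gates gathered and support nothing further.

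Genes of G2 and M phase stood lower in neurons. Of 26 such genes beside the gate genes, 26 had negative fitted differences on 4 chips, with a median of -3.79, and 22 were lower on 4 of 4 chips. An unadjusted p under 0.05 was reached by 17, and 0 passed the adjusted threshold. These genes are known to share promoter elements: the CCAAT box, and TTTGAA, the core of the cell cycle homology region. The 250 bases before the RefSeq start of 3 of them are shown, 5′ to 3′ on the gene's strand (GRCm38.p6), with each CCAAT and TTTGAA on either strand in capitals.
Cenpf, chr1:189688087-189688336, minus strand: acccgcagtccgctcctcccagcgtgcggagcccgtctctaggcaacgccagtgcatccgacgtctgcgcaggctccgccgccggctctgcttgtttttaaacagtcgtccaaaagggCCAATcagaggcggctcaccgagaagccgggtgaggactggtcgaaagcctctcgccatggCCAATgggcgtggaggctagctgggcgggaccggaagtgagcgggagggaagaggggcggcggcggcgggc
Ube2c, chr2:164769679-164769928, plus strand: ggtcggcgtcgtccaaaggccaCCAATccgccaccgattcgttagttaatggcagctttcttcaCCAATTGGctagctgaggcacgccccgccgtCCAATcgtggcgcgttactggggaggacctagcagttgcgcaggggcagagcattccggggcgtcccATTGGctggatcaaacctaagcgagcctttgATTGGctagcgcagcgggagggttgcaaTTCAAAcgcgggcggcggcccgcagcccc
Cdk1, chr10:69352913-69353162, minus strand: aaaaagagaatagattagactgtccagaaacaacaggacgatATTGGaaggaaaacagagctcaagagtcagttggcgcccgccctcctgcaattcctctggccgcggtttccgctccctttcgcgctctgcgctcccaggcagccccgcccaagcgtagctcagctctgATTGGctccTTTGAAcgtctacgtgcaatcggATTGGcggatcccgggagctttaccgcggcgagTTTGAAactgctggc

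Of the 26 genes, 22 had a RefSeq promoter, read over the 250 bases before the start. CCAAT, read on both strands, stood in 19 of these 22 (86.4%), taking the first promoter of each gene. The share was 34.5% over the first promoters of 27025 genes and 33.8% over all 32851 promoters. Of the lists below, S phase (57.1%), Notch (56.2%), radial glia (50%) and GABAergic genes (50%) also stood above these shares, and pan-neuronal genes (25%) below. TTTGAA stood in 9 (40.9%) against 16% of all promoters. In Ube2c, the matches at 186 and 183 bases before the start overlap, as CCAAT on opposite strands. A match describes letters in this window only, and the files hold no measure of binding.

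Cenpf, a kinetochore protein of G2 and M phase, averaged 487, 570, 385 and 643 CPM in dividing cells and 141, 113, 44.8 and 90.3 CPM in neurons. Its highest neuron value lay below its lowest dividing value, with differences of -2.32 ± 0.48 (SE, 2 chips) and -2.30 ± 0.36 (SE, 4 chips). It reached 10 CPM in 153 of 184 dividing cells and 18 of 42 neurons.
Cdk1, the kinase that drives entry into mitosis, averaged 586, 599, 231 and 571 CPM in dividing cells and 92.9, 166, 51.6 and 6.96 CPM in neurons. The classes did not overlap, and the fitted difference was -2.66 ± 0.86 (SE) on 4 chips. Ube2c, a ubiquitin carrier that helps destroy mitotic cyclins, averaged 630, 448, 254 and 533 CPM in dividing cells and 99.2, 136, 89.9 and 13.0 CPM in neurons.
Its classes did not overlap either. Prc1, which bundles the microtubules of the midzone spindle, averaged 215 to 492 CPM in dividing cells and 2.37 to 146 CPM in neurons. Ccna2, cyclin A2, averaged 162 to 491 CPM in dividing cells and 10.1 to 83.8 CPM in neurons. Some neurons still held G2 and M transcripts: Cdk1 reached 10 CPM in 10 of 42 neurons and Ccna2 in 7.
On the 7 chips with at least 3 cells of each class, the separation did not hold for each gene. Cdk1 and Prc1 were lower in neurons on 7 of 7 chips, Cenpf and Ube2c on 6 and Ccna2 on 5. The highest neuron value there was 877 CPM for Cenpf and 700.2 CPM for Ccna2, above the lowest dividing values.

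Genes of S phase, none of which was used in a gate, were also lower in neurons. All 25 had negative fitted differences on 4 chips (24 of 25 on 2 chips), with a median of -2.41, 12 were lower on 4 of 4 chips and 9 reached an unadjusted p under 0.05. Rrm2, a subunit of the enzyme that makes deoxynucleotides, averaged 731, 763, 600 and 607 CPM in dividing cells and 130, 32.8, 245 and 11.7 CPM in neurons. Rrm1, its partner subunit, averaged 436 to 698 CPM and 17.1 to 190 CPM. Both were below dividing cells on every one of the 4 chips, without overlap, and on 7 of 7 chips.
Slbp, which binds the stem-loop of histone mRNAs, averaged 411, 444, 388 and 675 CPM in dividing cells and 97.5, 135, 216 and 111 CPM in neurons, a difference of -1.59 ± 0.37 (SE, 4 chips). On 7 chips Slbp was lower in neurons on 5, with a neuron value of up to 1564 CPM and a difference of -0.63 ± 0.69 (SE). Pcna, the sliding clamp of DNA polymerase, averaged 363, 404, 307 and 439 CPM in dividing cells and 101, 47.6, 310 and 96.2 CPM in neurons. On chip 184, with 6 neurons, its level was not lower in neurons. Cdc6, which loads the replicative helicase, reached 10 CPM in 33 of 184 dividing cells and 0 of 42 neurons, where a count of 0 allows a share of up to 7.14% (3 of 42 cells, for counting error only).

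**Figure D2:**
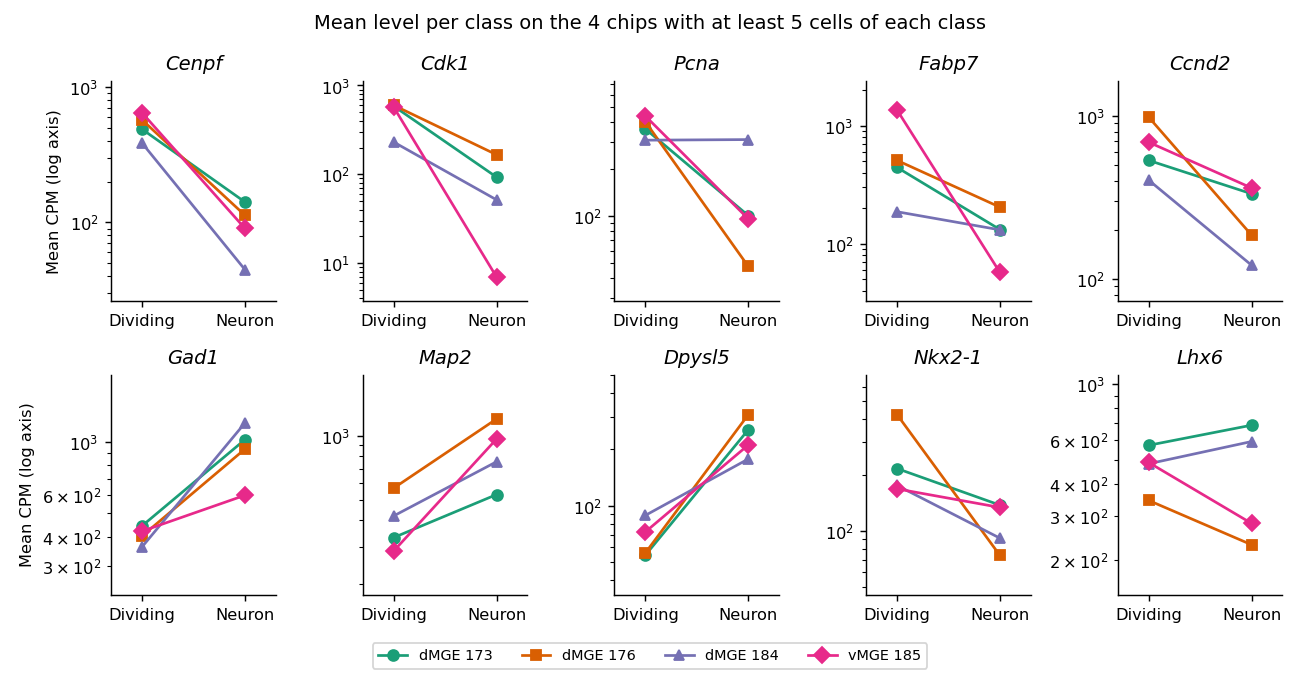
Each panel plots mean CPM (log axis) in dividing cells and neurons for 1 gene, with 1 line per chip (173, 176, 184 and 185). Cenpf, Cdk1, Ccnd2 and Nkx2-1 slope down on each chip, Gad1, Map2 and Dpysl5 slope up on each chip, and Lhx6 goes both ways.

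Regulators of cycle entry and exit were mixed. Of 17, 13 had negative differences on 4 chips, 6 were lower on 4 of 4 chips and 0 higher on 4 of 4. Ccnd2, cyclin D2, averaged 534, 984, 404 and 690 CPM in dividing cells and 333, 186, 121 and 362 CPM in neurons, a difference of -1.28 ± 0.31 (SE). Gadd45g, a stress and growth-arrest gene active in neurogenic progenitors, averaged 342 to 790 CPM in dividing cells and 157 to 312 CPM in neurons. Both genes were below the dividing level on each of the 4 chips, and on 7 of 7 chips for Ccnd2 and 5 of 7 for Gadd45g. Ccnd1, cyclin D1, averaged 96.2 to 194 CPM and 33.7 to 98.4 CPM, and overlapped between classes. Its fitted difference was -1.24 ± 0.77 (SE, 4 chips), and 0.0145 in limma on 6 chips, without chip 174.

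Radial glia genes were lower in neurons for part of the list. Of 18 tested, 15 had negative differences on 4 chips, 12 were lower and 1 higher on 4 of 4 chips, and the median was -1.73. Fabp7, a fatty acid binding protein of radial glia, averaged 442, 507, 186 and 1355 CPM in dividing cells and 132, 204, 131 and 57.1 CPM in neurons. It was lower on each chip, but the neuron value of chip 176 exceeded the dividing value of chip 184. Prom1, a membrane protein of the apical surface, averaged 69.0 to 318 CPM in dividing cells and at most 1.96 CPM in neurons, with 10 CPM reached in 1 of 42 neurons. Ednrb, the endothelin B receptor, averaged 120 to 224 CPM and 0.329 to 45.2 CPM.
Other members did not separate the classes, and were chosen after their values were seen. Sox2, which maintains neural progenitors, averaged 257, 614, 177 and 73.3 CPM in dividing cells and 265, 498, 80.2 and 29.1 CPM in neurons. Vim, an intermediate filament of radial glia, averaged 204 to 534 CPM in dividing cells and 254 to 852 CPM in neurons, and was higher in neurons on 4 of 4 chips.

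Of 18 Notch pathway genes, 16 had negative differences on 4 chips and 5 were lower on 4 of 4 chips. Hes5, a target that Notch induces in radial glia, averaged 51.4, 90.6, 24.6 and 51.3 CPM in dividing cells and 36.3, 0.176, 24.3 and 0 CPM in neurons. It reached 10 CPM in 56 of 184 dividing cells and 4 of 42 neurons. Of 7 Hedgehog pathway genes, 6 had negative differences and 1 was lower on 4 of 4 chips. Their levels were low: Ptch1, the Hedgehog receptor, averaged 15.7 to 50.6 CPM in dividing cells and 0 to 55.4 CPM in neurons, and reached 10 CPM in 26 of 184 of them and in 2 of 42 neurons.

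GABAergic genes were higher in neurons. Of 10, 9 had positive differences on 4 chips, with a median of 0.87, 4 were higher on 4 of 4 chips and 7 reached an unadjusted p under 0.05. Gad1, which makes GABA from glutamate, averaged 443, 402, 362 and 421 CPM in dividing cells and 1020, 931, 1198 and 596 CPM in neurons. Every neuron value exceeded every dividing value, and the difference was 1.02 ± 0.39 (SE) on 2 chips and 1.52 ± 0.32 on 4. On 7 chips Gad1 was higher in neurons on 5, with a difference of 0.59 ± 0.94 (SE).
Gad2, the second GABA-making enzyme, overlapped: 321 to 580 CPM in dividing cells and 448 to 940 CPM in neurons, with chip 184 lower in neurons. Dlx1 and Dlx5, homeobox factors that drive the GABAergic programme, were each higher in neurons on 4 of 4 chips, with overlapping ranges. Dlx1 averaged 396 to 867 CPM in dividing cells and 443 to 968 CPM in neurons, a difference of 0.52 ± 0.20 (SE). Dividing cells held these transcripts as well: Dlx1 reached 10 CPM in 169 of 184 dividing cells and in 40 of 42 neurons.

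Pan-neuronal genes of the cytoskeleton and synapse, a list related to the gate genes Tubb3 and Dcx, had 22 positive differences of 32 on 4 chips, with a median of 0.57. Of them 6 were higher on 4 of 4 chips, 0 were lower on 4 of 4, and 7 reached an unadjusted p under 0.05. Tuba1a, the main alpha tubulin of young neurons, averaged 7219, 4060, 6768 and 3530 CPM in dividing cells and 9431, 8268, 13120 and 5659 CPM in neurons. Map2, a microtubule protein of dendrites, averaged 332, 567, 420 and 287 CPM and 529, 1199, 754 and 965 CPM. Both were higher on each chip, by 0.96 ± 0.13 and 1.33 ± 0.26 (SE, 4 chips).
Dpysl5, a partner of tubulin in growing axons, averaged 54.2, 55.8, 88.7 and 72.3 CPM in dividing cells and 255, 307, 178 and 211 CPM in neurons. Its classes did not overlap, with a difference of 2.23 ± 0.49 (SE, 4 chips), and it was higher on 5 of 7 chips. Gap43, a growth cone protein, averaged 49.2 to 173 CPM and 80.8 to 517 CPM, and was lower in neurons on chip 184. Mllt11, a retinoic-acid-responsive gene of young neurons, averaged 207 to 316 CPM and 293 to 738 CPM. Its difference was 1.12 ± 0.30 (SE) on 4 chips but -0.52 in limma on 7 chips.

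MGE transcription factors stood on both sides: 9 of 18 differences were positive, the median was -0.01, 4 were lower on 4 of 4 chips and 0 higher on 4 of 4. Nkx2-1, which specifies the MGE, averaged 217, 424, 176 and 169 CPM in dividing cells and 138, 73.8, 91.4 and 134 CPM in neurons. The classes did not overlap on these 4 chips, though Nkx2-1 was lower in neurons on 6 of 7, and the fitted differences were -0.23 ± 0.67 (SE, 2 chips) and -0.78 ± 0.55 (SE, 4 chips). Lhx6, a target of Nkx2-1 kept by migrating interneurons, averaged 571, 345, 482 and 488 CPM in dividing cells and 686, 230, 591 and 280 CPM in neurons.
Lhx6 was higher in neurons on 2 chips and lower on 2, so no direction could be read. Sox6, which acts after Lhx6, averaged 170 to 225 CPM in dividing cells and 169 to 461 CPM in neurons, a difference of 0.95 ± 0.46 (SE, 4 chips). Zeb2, a factor that directs cells towards the cortex, averaged 227, 221, 126 and 69.2 CPM in dividing cells and 180, 73.2, 27.4 and 15.7 CPM in neurons. Its difference was -1.24 ± 1.05 (SE, 2 chips). It was 0.81 against only the dividing cells that did not hold both Tubb3 and Dcx at 50 CPM or more.

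Among chromatin and RNA regulators, 10 of 27 differences were positive and 2 genes were higher on 4 of 4 chips. Celf4, an RNA-binding protein of neurons, averaged 230, 120, 188 and 102 CPM in dividing cells and 262, 330, 198 and 186 CPM in neurons. It reached 10 CPM in 111 of 184 dividing cells and 36 of 42 neurons.

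Meis2, a homeobox factor of the lateral ganglionic eminence (LGE) and striatum, belonged to the striatal list. It averaged 246, 291, 97.7 and 119 CPM in dividing cells and 2.07, 10.9, 37.9 and 0.303 CPM in neurons. The classes did not overlap. It reached 10 CPM in 104 of 184 dividing cells and 5 of 42 neurons, whereas on 4 CGE chips it averaged 542 CPM in dividing cells and 507 CPM in neurons. The whole striatal and LGE list of 12 genes summed to 176 to 430 CPM in dividing MGE cells and 1.15 to 197 CPM in neurons.

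Other cell types were checked by marker lists summed per class and chip. On the 4 chips, endothelial markers (6 genes) reached at most 5.999 CPM and microglial markers (6 genes) at most 5.60 CPM. Pericyte and fibroblast markers (8 genes) reached at most 63.0 CPM, and pallial excitatory markers (9 genes) at most 42.1 CPM. On the 7 chips with at least 3 cells of each class, the highest sums were 9.12, 10.9, 101.8 and 42.1 CPM, in that order. Erythroid genes stood at 4713 CPM in the dividing cells of chip 173 and at or below 49.1 CPM in every other class and chip of the 4. Immediate early genes, which dissociation can induce, were higher in neurons on 4 of 4 chips, 838 to 2280 CPM against 731 to 1423 CPM. Neurons had fewer genes detected, with a median of 3399 against 4094 in dividing cells, at medians of 1111410 and 930725 counts. The part of these values in the differences was not tested.

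Whether the class difference differed by region was tested in the same fits. Between vMGE and dMGE it could not be fitted with at least 10 cells per class. With at least 5 cells, on 1 vMGE and 3 dMGE chips, edgeR called 0 of 10427 genes, with 599 at an unadjusted p under 0.05. With at least 3 cells, on 2 vMGE and 5 dMGE chips, it called 0 of 8888 genes, with 226 at an unadjusted p under 0.05. Between MGE and CGE, the fit with at least 10 cells per class used 2 MGE and 3 CGE chips. There edgeR called 0 of 10332 genes (0%), with 687 at an unadjusted p under 0.05, limma called 0 and DESeq2 840. On the 4 CGE chips with at least 5 cells of each class, Cenpf averaged 538 CPM in dividing cells and 174 CPM in neurons, and Gad1 347 and 600 CPM. Nkx2-1 averaged 32.8 and 13.5 CPM there. These 3 genes stood in the same order in both regions, but they were picked as examples and do not stand for all genes.

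Many dividing cells carried the neuron genes. Of 610 dividing MGE cells, 317 had Tubb3 and Dcx each at 50 CPM or more and 293 did not. The latter are called cells without Tubb3 and Dcx, which means that they did not reach 50 CPM in both genes. They were not free of these transcripts. The split was chosen after the data were seen, and so were the genes named for it. On 9 chips with at least 10 cells of each kind (304 with and 219 without), levels are given as lowest, median and highest chip. Tubb3 itself averaged 172, 487.5 and 869 CPM in cells without and 823, 1272 and 3065 CPM in cells with. Dcx averaged 27.5, 128 and 170.5 CPM without and 503, 875 and 1103 CPM with. Fitted on these chips, 0 of 10744 genes (0%) passed an adjusted p under 0.05 in edgeR, with 481 (4.48%) higher and 484 (4.50%) lower at an unadjusted p under 0.05. limma called 30 genes, DESeq2 786, and edgeR 38 after thinning each cell to 50000 counts. Cells with both genes were above cells without on 9 of 9 chips for 140 genes (1.3%) and below on 9 of 9 for 109 (1.01%). The median difference over all genes was 0.04.

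S phase genes were lower in the dividing cells that held Tubb3 and Dcx. All 25 had negative differences, with a median of -1.34, 10 were lower on 9 of 9 chips and 18 reached an unadjusted p under 0.05. Pcna averaged 344, 597 and 698 CPM without and 121, 198 and 348 CPM with the 2 genes, lower on 9 of 9 chips with a fitted difference of -1.49 ± 0.22 (SE). Mcm5, part of the replicative helicase, averaged 71.7, 208 and 406 CPM without and 35.5, 69.3 and 200 CPM with.
G2 and M genes also stood lower: all 26 had negative differences, with a median of -0.53, and 1 of 26, Smc4, a condensin subunit, was lower on 9 of 9 chips. No test compared the 2 lists. In CGE, the medians on 5 chips were -1.08 for S phase and -0.79 for G2 and M genes.

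Radial glia genes also stood lower in the cells with Tubb3 and Dcx. All 18 had negative differences with a median of -1.03, and 4 were lower on 9 of 9 chips. Dbi, an acyl-CoA binding protein abundant in progenitors, averaged 268, 571 and 1132 CPM without and 187, 247 and 655 CPM with Tubb3 and Dcx. Ednrb averaged 128, 325 and 445 CPM without and 35.6, 100 and 195 CPM with. Of 18 Notch genes, 15 had negative differences and 1 was lower on 9 of 9 chips. That gene, Hes5, averaged 32.1, 61.1 and 154 CPM without and 10.9, 32.4 and 49.1 CPM with. Olig2, an MGE list factor of ventral progenitors, stood at medians of 104 and 55.4 CPM, lower on 9 of 9 chips.

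GABAergic genes were higher in the dividing cells that held Tubb3 and Dcx. Of 10 GABAergic genes 10 had positive differences, with a median of 0.80, and 2 were higher on 9 of 9 chips, Gad1 and Dlx6os1, a long RNA of the Dlx5 and Dlx6 locus. Gad1 averaged 66.3, 173 and 426 CPM without and 362, 628 and 967 CPM with, a difference of 1.94 ± 0.29 (SE). Of 18 MGE transcription factors, 14 had positive differences, 2 were higher on 9 of 9 chips, Lhx6 and Sox6, and 1 was lower on 9 of 9, Olig2. At an unadjusted p under 0.05, 6 were higher and 3 lower, the last being Nkx2-1, Otx2 and Olig2.
Lhx6 averaged 183, 332 and 753 CPM without and 344, 531 and 812 CPM with, a difference of 0.67 ± 0.16 (SE). Sox6 averaged 36.9, 152 and 271 CPM without and 237, 297 and 503 CPM with. Nkx2-1 stood at medians of 402 and 289 CPM and was lower on 7 of 9 chips. Npy, a neuropeptide of later interneurons, averaged 38.9, 104 and 234 CPM without and 146, 319 and 602 CPM with, and Calb1, a calcium buffer, had medians of 30.3 and 142 CPM. Both were higher on 9 of 9 chips.
Of 32 pan-neuronal genes, 30 had positive differences and 4 were higher on 9 of 9 chips. Crmp1, a cytoskeletal protein of growth cones, had medians of 400 CPM without and 922 CPM with, and Tuba1a 3120 and 5331 CPM. These genes belong to the programme of Tubb3 and Dcx, which made the split.
Immediate early genes also went with the split, while markers of other cell types went both ways. Of 7 immediate early genes tested, 7 had positive differences with a median of 0.63, and the list sum was higher in cells with Tubb3 and Dcx on 8 of 9 chips. On the 4 chips with neurons that sum averaged 631 CPM without and 1341 CPM with, pericyte and fibroblast markers 0.0783 and 39.7 CPM, endothelial markers 0.817 and 5.46 CPM, and microglial markers 0.281 and 5.22 CPM. Their part in the split was not tested.

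**Figure D3:**
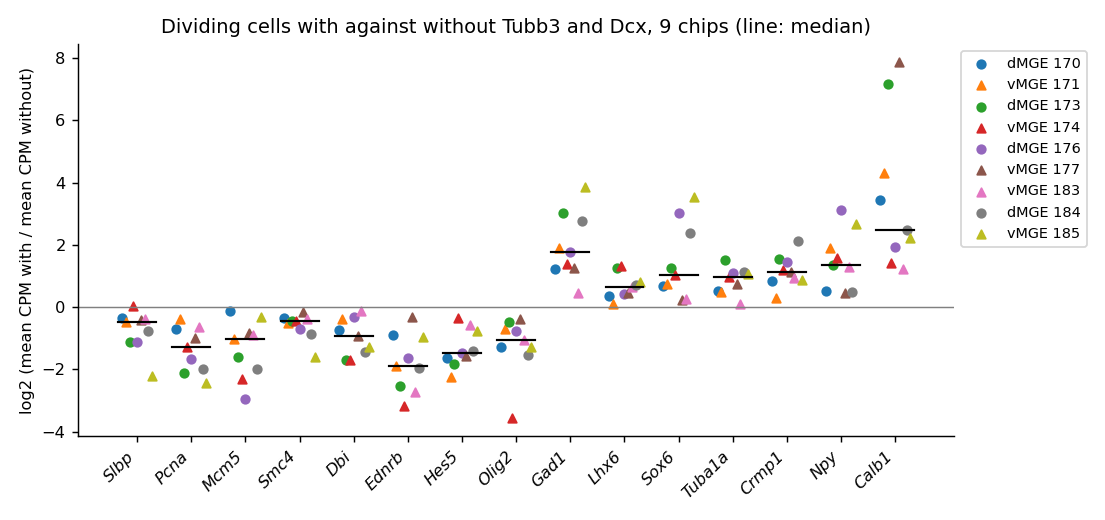
For 15 genes (x axis), points give the log2 ratio of mean CPM in dividing cells with over those without Tubb3 and Dcx (y axis) on each of 9 chips, circles for dMGE and triangles for vMGE, with lines at the medians. Pcna, Mcm5, Smc4, Dbi, Ednrb, Hes5 and Olig2 lie below 0 on 9 of 9 chips, and Gad1, Lhx6, Sox6, Tuba1a, Crmp1, Npy and Calb1 above 0 on 9 of 9. Slbp lies below 0 on 8 chips and at 0.04 on chip 174.

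On the 4 chips with at least 5 neurons, the dividing cells could be set beside the neurons in list sums of mean CPM (mean ± SD, n = 4 chips). S phase genes summed to 8274 ± 1325 CPM in dividing cells without Tubb3 and Dcx, 2909 ± 669 CPM in those with, and 2156 ± 455 CPM in neurons. GABAergic genes summed to 2186 ± 597, 5720 ± 886 and 6120 ± 626 CPM. For both lists the dividing cells with Tubb3 and Dcx lay nearer to the neurons than to the other dividing cells on 4 of 4 chips. They and the neurons met the same Tubb3 and Dcx rule, which the other dividing cells failed. This nearness is therefore not independent of the gates and supports nothing further. Xist together with a Y-linked gene, a sign of more than 1 cell in a chamber, stood in 8 of 102 dividing cells with Tubb3 and Dcx. The pair stood in 0 of 82 without Tubb3 and Dcx, which allows a share of up to 3.66%, and in 1 of 42 neurons.
G2 and M genes, tied to the dividing gate, summed to 9164 ± 2097, 5360 ± 1180 and 1508 ± 755 CPM. The middle class lay between the others on 4 of 4 chips and nearer to the neurons on 3. Radial glia genes summed to 4185 ± 738, 2162 ± 732 and 1727 ± 735 CPM, between on 3 chips and nearer to the neurons on 3. For S phase and GABAergic genes the middle class lay between on 3 of 4 chips. Not every list was ordered this way. MGE transcription factors summed to 1737 ± 376, 2640 ± 262 and 2347 ± 157 CPM, between on 0 chips. Interneuron peptides and maturation markers summed to 203 ± 59.9, 853 ± 433 and 595 ± 218 CPM, between on 1.

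**Figure D4:**
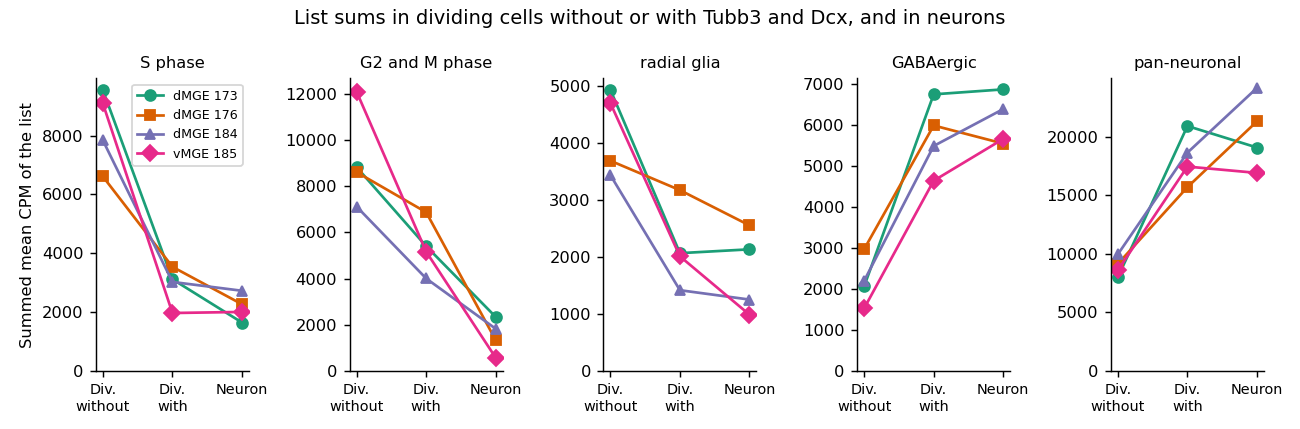
Each panel plots the summed mean CPM of a gene list (y axis) in dividing cells without Tubb3 and Dcx, dividing cells with them, and neurons (x axis), with 1 line per chip. S phase sums drop from 6610 to 9551 CPM in the first class to 1964 to 3536 CPM in the second, and GABAergic sums go from 1523 to 2968 CPM up to 4642 to 6753 CPM.

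Signs of more than 1 cell in a chamber were looked for as Xist, made by the inactive X of female cells, together with a Y-linked gene (Ddx3y, Eif2s3y, Kdm5d or Uty), each at 10 CPM or more. On the 9 chips, both stood in 48 of 304 dividing cells with Tubb3 and Dcx (15.8%, exact binomial 95% interval 11.9% to 20.4%) and in 19 of 219 without (8.68%, 5.30% to 13.2%). They stood in 1 of 56 neurons (1.79%). By chip the share of passing cells was 22.1% on chip 170, 41.1% on 171 and 20.5% on 183, the 3 chips without neurons, and 0% to 6.25% on the other 10. On those 3 chips, 72% to 75.3% of dividing cells held Tubb3 and Dcx.
Without the cells that held both signs, the split differences were -1.56 for Pcna, 1.88 for Gad1 and 0.78 for Lhx6, and without the 3 chips they were -1.77, 2.26 and 0.88. Both settings gave 0 edgeR calls. Cells of the same sex that share a chamber leave no such sign, so their part in the split was not tested. The median number of genes was higher in the cells with Tubb3 and Dcx on 3 of 9 chips. Pooled over the 9 chips, it was 4290 in cells with and 4106 in cells without the 2 genes.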

How the data were processed

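Polyadenylated RNA of single cells was amplified with Smart-seq v4 and read as single-end libraries. The deposited values are raw counts of reads for each gene in each cell. Per the submitters' processing notes the authors used STAR 2.4.0, SAMtools and HTSeq 0.6.1 on build mm9, with CASAVA and FastQC. A deposited RPKM table was not used here. There are no molecular identifiers, so reads are not independent molecules, and intervals cover counting error only. Of 37310 genes, 32620 matched a reference name by identifier; strand use in counting is not given in the sources used here, so overlapping and antisense genes cannot be told apart.

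The 1402 E12.5 cells were used. CPM is a cell's count over its column sum, not per length, so levels are compared within a gene. Counts summed per chip and class (6649774 to 73587734 per sum on the 4 chips) were fitted with edgeR 4.0.16 (TMM, filterByExpr, quasi-likelihood, chip as block, Benjamini-Hochberg over all genes). The code was also run on simulated counts with a preset spread between chips, which does not show how well the fits work on these counts. limma 3.58.1 and DESeq2 1.42.0 were alternatives. The chips pair the classes by construction, since both came from the same chip. Doublets were not removed, only counted by Xist and Y-linked genes. The plan for the vMGE to dMGE test needed 10 cells per class and could not be fitted, so at least 5 were used.

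The members, gates and gene lists were chosen with earlier results of these data known. Genes were named by smallest adjusted p within a list (ties by unadjusted p, up to 6), with any member of the Notch, MGE factor, Hedgehog, GABAergic, cycle regulator, chromatin and peptide lists allowed. Promoters are RefSeq's (GRCm38.p6), used for sequence only. Sox1, Disp1, Scn2a1 and Hbb-b1 of the lists had no row. Some results are not reported here.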

Additional observations from a re-analysis of the deposited data

Results flagged for a closer look

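Among 66 groups of chips or class levels examined, 5 held a chip far from the others by Dixon's criterion, where chance gives about 5% of groups. On dMGE chip 170, 22.1% of cells held both Xist and a Y-linked gene, against at most 6.25% on the other dMGE chips. On vMGE chip 185, 14.1% of passing cells were neurons, against at most 4.88% on the other vMGE chips. Ccna2 in neurons stood at 83.8 CPM on chip 176, Cdk1 in dividing cells at 231 CPM on chip 184 and Mllt11 in dividing cells at 316 CPM on chip 184.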

How the results depend on the processing

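The neuron and dividing classes gave 0 edgeR calls with the planned 2 chips and with no replicate block, another scaling, no low count filter or at least 5 cells. Calls appeared with DESeq2 (444, 1854 with at least 5 cells and 1996 with at least 3) and with limma at 3 cells on 7 chips (336). The limma count was 112 when dividing cells with Tubb3 and Dcx were left out, 299 without cells holding Xist and Y-linked genes, and 1 with 10 in place of 1 added to the CPM. Thinning to 50000 counts with at least 5 cells gave 2. Leaving out 1 chip gave 0 to 393 calls, all counts above 1 in limma on 7 chips, with 0 without chip 174 or 195, 67 without 176, 73 without 184 and 126 without 185. The comparison of MGE with CGE gave 840 calls in DESeq2 and 0 in the other settings that could be fitted. The split of dividing cells gave 30 calls with limma, 786 with DESeq2, 38 after thinning and 0 to 2 without 1 chip.

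Of 28 genes with a fitted class difference, 24 kept their sign in every setting run. Lhx6 turned positive with at least 5 cells (0.12, 0.22 in DESeq2, 0.20 with the stricter cell filter), with a dividing gate at 50 CPM (0.0071), and with dividing cells without Tubb3 and Dcx (0.41, 0.61 with 5 cells, 0.12 with 3), and ranged from -0.954 to 0.353 without 1 chip. Zeb2 turned to 0.81 with dividing cells without Tubb3 and Dcx. Mllt11 turned to -0.52 with limma at 3 cells, -0.22 with 10 added and -0.52 without cells holding Xist and Y-linked genes, and ranged from -0.81 to 1.22 without 1 chip. Ccnd1 ranged from -2.15 to 0.0145 without 1 chip, the last without chip 174 in limma. The cause was not tested. All 21 genes of the split kept their sign. The vMGE to dMGE difference in neuron share ranged from -11.4 to -1.48 points over its alternatives, with exact permutation p from 0.106 to 0.706.

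Fits with at least 20 cells, with neurons free of any cycle gene, in dMGE or vMGE alone, after thinning with 10 cells, with neuron genes at 200 CPM, under the stricter cell filter with 10 cells, or without 1 of the 2 chips could not be run for the class difference. With 6 to 16 neurons per chip, genes detected in few cells vary widely between chips.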
